A study of Mus musculus with 12 samples.

Results

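The genes of blood coagulation and fibrinolysis were examined in whole livers of septic mice. The set holds 33 genes, chosen by symbol from the 25611 genes of the count table and spanning the fibrinogen chains, the clotting factors and their cofactors, the contact system, the natural anticoagulants and the plasminogen system. All 33 were in the table, and all 33 were among the 13190 genes that passed the filter on low counts. The mice were male C57BL6J animals aged 8 to 10 weeks in 3 groups of 4. Sham mice had the abdomen opened without injury to the cecum, CLP mice had cecal ligation and puncture, which releases gut bacteria into the abdomen, and CLP+DCA mice had the same procedure followed by 25 mg/kg dichloroacetate (DCA), a pyruvate analog that inhibits the pyruvate dehydrogenase kinases, given intraperitoneally 24 hr after surgery. All livers were collected 30 hr after surgery, which was 6 hr after DCA, and the sources used here name no vehicle injection for the sham and CLP mice. Each library came from 1 mouse, so all values are for mixed liver cells.

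Hepatocytes make most circulating clotting factors, the fibrinogen chains, plasminogen and many of the inhibitors that hold clotting in check, and release them into plasma. Clotting starts when tissue factor meets factor VII, proceeds through a cascade of proteases to thrombin, and ends when thrombin cuts fibrinogen into fibrin and activates factor XIII to crosslink it. Fibrinolysis removes the clot once plasminogen is activated to plasmin. Endothelial cells contribute thrombomodulin, the protein C receptor, von Willebrand factor and tissue plasminogen activator, and fibrinogen is a textbook acute phase protein that inflamed liver makes in larger amounts.

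The 12 libraries held 24436513 to 44266819 counted reads (median 30005989). Levels are in CPM, a gene's counts relative to a fixed library total after scaling of library sizes by TMM. Hepatocyte markers defined every library, with albumin at 15323 to 58481 CPM. One library stood apart from its group. CLP+DCA replicate 3 correlated best with CLP replicate 2 over all genes tested (r = 0.981), whereas CLP+DCA replicate 1 and replicate 2 correlated best with each other (r = 0.992) and replicate 4 with a sham mouse (r = 0.990). For 23 of the 33 genes it was the mouse farthest from the sham mean among all 12. For 27 of 33 it lay beyond the CLP mean, as CLP replicate 2 did for 29. These counts were not taken over all genes tested. Its neutrophil marker sum (7 genes) was 45.4 CPM against 5.97 to 13.3 CPM in the other CLP+DCA mice, 28.2 to 36.8 CPM in CLP and 6.17 to 8.89 CPM in sham. In CLP replicate 3, Des, a muscle and stellate cell gene, was at 172 CPM against 3.32 to 3.93 CPM in the other CLP mice, and Col1a1 (19.8 CPM) and Krt19 (3.75 CPM) were also highest there. Results are therefore given with and without CLP+DCA replicate 3, and without both libraries where the count of changed genes moved.

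Per kilobase of exon, the set spanned a wide range of levels in sham liver. The fibrinogen chains led, with Fgg at 3476 ± 512, Fga at 3179.5 ± 497 and Fgb at 2376 ± 404 CPM per kb (mean ± SD, n = 4). The ranges of these 3 over the sham mice overlapped. Kng1, encoding kininogen, followed at 1032 ± 91.9 CPM per kb and Plg, encoding plasminogen, at 824 ± 48 CPM per kb. In all, 15 genes were above 100 CPM per kb, 8 were between 10 and 100, none was between 5 and 10, and 10 were at or below 5. The lower class held F3, F8, Tfpi, Thbd, Plau, Procr, Vwf, Plaur, F13a1 and Plat, from F3 at 1.36 ± 0.106 down to Plat at 0.0187 ± 0.0132 CPM per kb. Most of these are textbook genes of endothelial, stromal or blood cells rather than of hepatocytes. In CLP liver the fibrinogen chains still led at 8201 ± 2796 (Fga), 8096 ± 2408 (Fgg) and 5537 ± 1672 CPM per kb (Fgb), and Cpb2 moved from rank 9 to rank 6.

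CLP was compared with sham to ask how sepsis changed the set. At a false discovery rate (FDR) of 0.05 across all genes, 1 of the 33 genes was called, F13a1, the A chain of factor XIII, which rose. This was 3.03% of the set, against 2.78% of all genes tested. At an unadjusted p under 0.05, 12 genes were higher (36.4%, against 15.5% of all genes in that direction), namely Cpb2, F11, F13a1, Fga, Fgb, Fgg, Plat, Plaur, Procr, Tfpi, Thbd and Vwf. Only Proc was lower by that measure (3.03%, against 13.1%). In 10 genes every CLP mouse lay above every sham mouse (30.3%, against 12.2% of all genes), the 12 just named without F11 and Tfpi. In 7 genes every CLP mouse lay below every sham mouse (21.2%, against 14.2%), namely F10, F13b, F3, F7, Klkb1, Proc and Serpinc1. The median log2 fold change was 0.12 over the set and 0.02 over all genes tested.

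The count of calls turned on CLP+DCA replicate 3, which is in neither group of this comparison but shares the estimate of spread. Without it, 11 of the 33 genes were called higher (33.3%, against 12.2% of all genes), which were F13a1, Fga, Fgb, Fgg, F11, Vwf, Procr, Thbd, Plat, Plaur and Cpb2. On the same fit 5 were called lower (15.2%, against 11.5%), which were F13b, F7, F10, Klkb1 and Proc. DESeq2 on the 8 sham and CLP mice alone called 18 (54.5%, against 23.2%), which were those 16 together with F3 and Serpinc1. Without both CLP replicate 3 and CLP+DCA replicate 3, 17 of the 32 that passed the filter were called, against 31.1% of all genes. With and without CLP+DCA replicate 3 the fitted fold changes were nearly equal and the standard errors were not, as the plot of fitted changes shows.

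**Figure D1:**
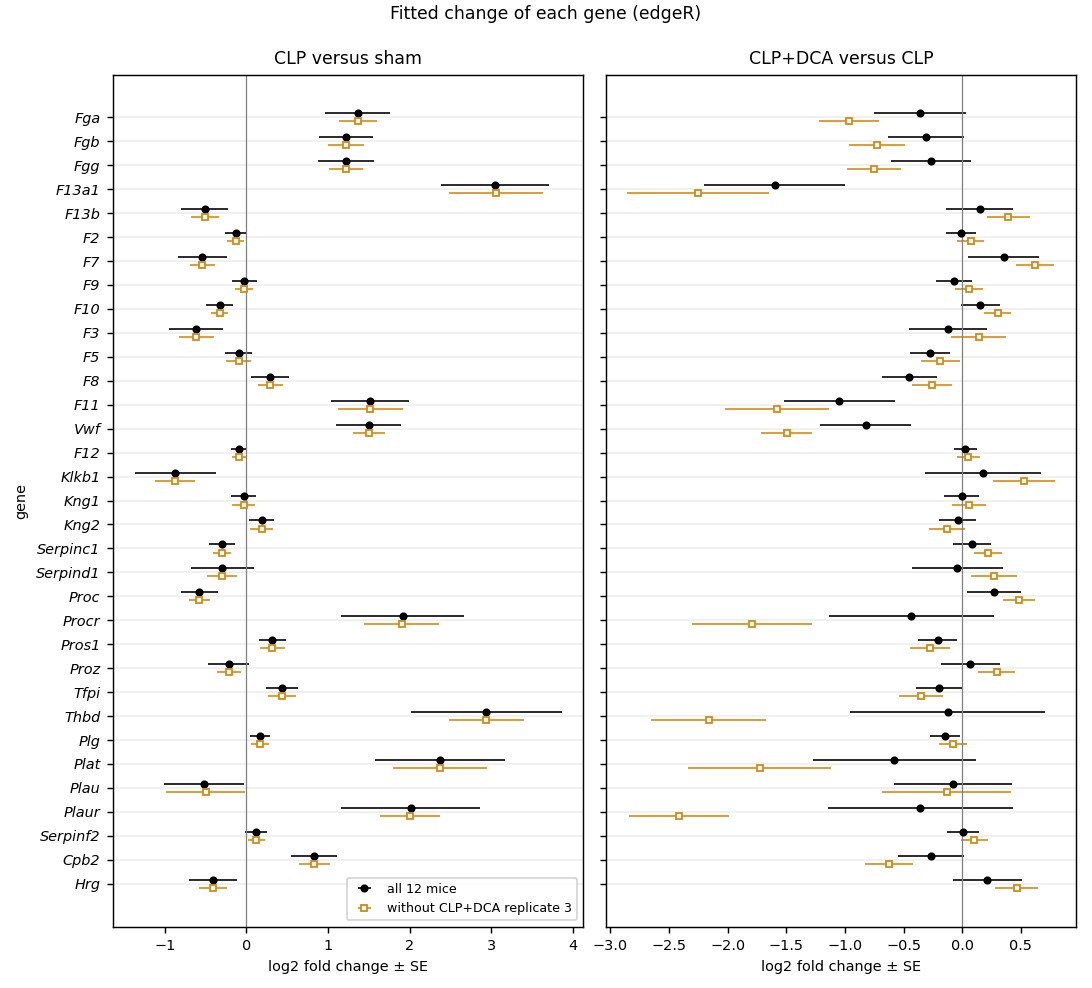
Fitted log2 fold change of each of the 33 genes, with its standard error, in CLP versus sham (left) and CLP+DCA versus CLP (right). Black circles are the fit to all 12 mice and open orange squares the fit without CLP+DCA replicate 3. On the left the points coincide and the bars shorten, from 0.40 to 0.20 for Vwf, and on the right the points move, from -0.12 to -2.16 for Thbd.

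The fibrinogen chains Fga, Fgb and Fgg, which assemble into the hexamer that thrombin converts to fibrin, were higher in every CLP mouse than in any sham mouse. Fga, the alpha chain, was at 9833, 9468, 7672 and 11309 CPM in the 4 sham mice, at 19831, 34068, 15692 and 29149 CPM in the 4 CLP mice and at 11702, 14172, 39019 and 12031 CPM in the 4 CLP+DCA mice, in replicate order. The CLP mice were thus all above the sham mice, with replicates 2 and 4 the highest. Of the CLP+DCA mice, replicate 3 stood above every CLP mouse and the other 3 lay between the sham and the CLP mice. The fold change of the means was 2.58 (log2 fold change 1.37 ± 0.40, SE, n = 4 per group, edgeR's quasi-likelihood adjusted p = 0.0718). Fgb, the beta chain, was at 9027, 9080.1, 7169 and 10939 CPM in sham, 18369, 28678, 13920.1 and 23414 CPM in CLP and 11688, 14872, 29815 and 11696 CPM in CLP+DCA. Its log2 fold change in CLP was 1.22 ± 0.33 (edgeR adjusted p = 0.063). Fgg, the gamma chain, was at 7476, 7257, 5883 and 8484 CPM in sham, 14267, 22775, 11493 and 19248 CPM in CLP and 9177, 11604, 26029 and 9460.4 CPM in CLP+DCA. Its log2 fold change was 1.22 ± 0.34 (edgeR adjusted p = 0.0685). The mice fell in the same order for all 3 chains in CLP, with replicate 2 highest, then 4, 1 and 3. None of the 3 adjusted values passed 0.05 on all 12 mice, and all 3 did without CLP+DCA replicate 3.

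The proportions of the fibrinogen genes to one another differed by a few percent of fibrinogen reads. Fga made up 37 ± 0.286% of these reads in sham livers, then 39.1 ± 1.33% in CLP and 37 ± 2.79% in CLP+DCA, with 41.1% in CLP+DCA replicate 3. Its share was higher in every CLP mouse (37.8 to 40.6%) than in any sham mouse (36.7 to 37.3%). Fgb made up 34.9 ± 0.592%, 33.8 ± 0.993% and 34.8 ± 2.30%, with 31.4% in CLP+DCA replicate 3. Fgg made up 28.1 ± 0.369%, 27.1 ± 0.591% and 28.2 ± 0.513%. The 3 genes lie side by side on chromosome 3 (mm10), Fgg at chr3:83007724-83015056, Fga at chr3:83026153-83033617 and Fgb at chr3:83042246-83049863, with 11.1 kb and 8.6 kb between them and no other gene of the table in the gaps. Fgb is on the strand opposite to the other two.

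The stretch just upstream of a gene is where many factors that set its transcription bind, so the upstream sequences of the fibrinogen genes are shown beside those of F11 and Cpb2, both secreted by hepatocytes and likewise higher in CLP replicates 2 and 4. RefSeq sequence on GRCm38.p6 was available for 26 of the 33 genes and was read over the 250 bases before the start. Capitals mark matches on either strand to 4 short motifs, TTCNNNGAA (the palindrome bound by STAT factors, including STAT3 downstream of IL-6), CTGGGA (the core of the IL-6 element of acute phase promoters), TTNNGNAA (a core bound by C/EBP factors) and GTTAAT (a half-site of the hepatocyte factor HNF1). For Fga the stretch stops 77 bases short of the start, where another annotated transcript begins. They are given 5′ to 3′ on the strand of each gene, Fga at chr3:83025903-83026075 (plus strand), Fgb at chr3:83049864-83050113 (minus strand), Fgg at chr3:83007474-83007723 (plus strand), F11 at chr8:45262032-45262281 (minus strand) and Cpb2 at chr14:75242037-75242286 (plus strand).
Fga: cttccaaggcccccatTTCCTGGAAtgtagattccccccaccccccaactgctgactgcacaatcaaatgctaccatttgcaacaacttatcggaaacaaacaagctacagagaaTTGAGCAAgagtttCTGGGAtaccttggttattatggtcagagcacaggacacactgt
Fgb: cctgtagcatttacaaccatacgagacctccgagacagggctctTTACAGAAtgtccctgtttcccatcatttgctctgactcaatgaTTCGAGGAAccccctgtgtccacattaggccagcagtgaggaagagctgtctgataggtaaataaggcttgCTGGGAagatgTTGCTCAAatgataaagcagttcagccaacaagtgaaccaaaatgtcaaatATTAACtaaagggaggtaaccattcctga
Fgg: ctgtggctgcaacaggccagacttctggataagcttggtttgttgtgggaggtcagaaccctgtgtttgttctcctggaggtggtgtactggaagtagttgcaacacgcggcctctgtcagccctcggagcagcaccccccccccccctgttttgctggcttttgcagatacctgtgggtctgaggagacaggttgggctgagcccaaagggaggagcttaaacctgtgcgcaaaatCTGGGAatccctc
F11: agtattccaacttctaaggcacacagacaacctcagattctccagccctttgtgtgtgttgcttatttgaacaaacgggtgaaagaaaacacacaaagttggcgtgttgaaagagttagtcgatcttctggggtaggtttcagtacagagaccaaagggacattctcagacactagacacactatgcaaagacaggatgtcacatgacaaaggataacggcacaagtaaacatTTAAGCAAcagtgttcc
Cpb2: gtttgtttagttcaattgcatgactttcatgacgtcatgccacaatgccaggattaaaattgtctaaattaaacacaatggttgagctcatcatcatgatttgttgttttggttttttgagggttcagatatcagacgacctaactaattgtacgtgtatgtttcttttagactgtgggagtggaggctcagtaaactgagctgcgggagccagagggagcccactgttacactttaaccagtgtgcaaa

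CTGGGA was present upstream of all 3 fibrinogen genes, at bases 121 to 116 before the start of Fga, 91 to 86 before Fgb and 13 to 8 before Fgg. It was in 27.0% of all 32851 upstream windows of the table and in the windows of 11 of the 26 genes of the set, and it was not in those of F11 and Cpb2. TTCNNNGAA was upstream of Fga and Fgb, at bases 234 to 226 and 162 to 154, as it was in 7.02% of all windows. In the set F9 and Pros1 also held it. TTNNGNAA was in 36.8% of all windows and was upstream of Fga (bases 135 to 128), of Fgb (bases 206 to 199 and 80 to 73) and of F11 (bases 17 to 10). GTTAAT was upstream of Fga (bases 43 to 38, in the stretch not printed) and of Fgb (bases 29 to 24), and it was in 6.43% of all windows. The Cpb2 window held none of the 4. These matches describe letters in a window, and no binding was measured.

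**Figure D2:**
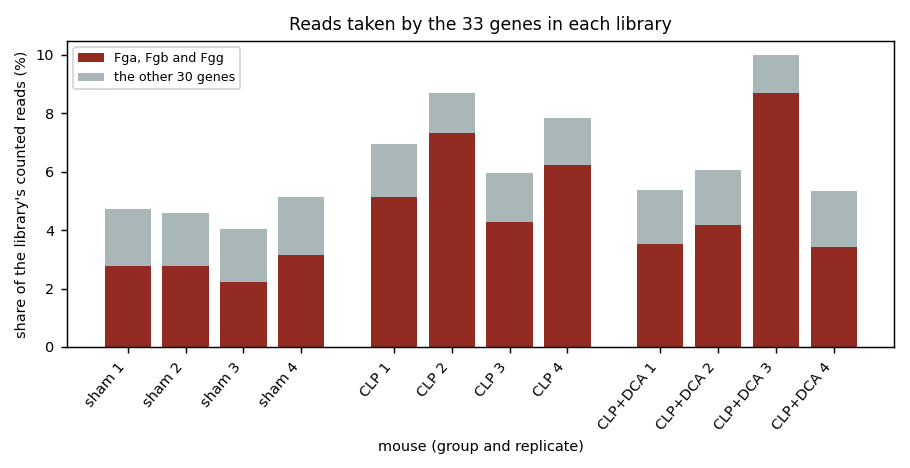
Share of each library's counted reads taken by the 33 genes, as percent, with the fibrinogen chains in dark red and the other 30 genes in grey, for the 12 mice. Fibrinogen takes 2.22 to 3.16% in sham and 4.28 to 7.31% in CLP, and 8.70% in CLP+DCA replicate 3.

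Because the fibrinogen genes are so abundant, they set the share of liver reads that the whole set took. The 33 genes took 4.61 ± 0.443% of reads in sham livers, 7.36 ± 1.18% in CLP livers and 6.69 ± 2.22% in CLP+DCA (SD, n = 4). Fibrinogen alone took 2.73 ± 0.388%, 5.74 ± 1.31% and 4.96 ± 2.52%. The other 30 genes together took 1.88 ± 0.0698%, 1.62 ± 0.176% and 1.73 ± 0.302%. The bars show that fibrinogen widened in CLP while the remainder did not. In CLP+DCA replicate 3 the set took 9.98% of reads, against 5.33 to 6.07% in the other CLP+DCA mice.

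Factor XIII is the transglutaminase that crosslinks fibrin, with a catalytic A chain (F13a1) made by blood-derived cells and a carrier B chain (F13b) made by hepatocytes. F13a1 was at 0.26, 0.223, 0.317 and 0.191 CPM in sham, 1.89, 1.58, 4.26 and 0.404 CPM in CLP and 0.287, 0.571, 1.38 and 0.445 CPM in CLP+DCA, which is 7 to 10 reads per sham mouse and 9 to 176 per CLP mouse. The lowest CLP mouse was above the highest sham mouse. In CLP, replicate 3, the library with high Des, was highest while replicate 4 was near the sham range. The log2 fold change was 3.05 ± 0.66 (edgeR's quasi-likelihood test, Benjamini-Hochberg adjusted p = 0.0417, fold of the means 8.2). Across 23 alternative settings its adjusted p ran from 3.79e-05 to 0.110 and passed 0.05 in 11, and on leaving out single mice it passed in 3 of 12, namely without CLP replicate 3, CLP+DCA replicate 3 or CLP+DCA replicate 4. F13b went the other way, at 169 ± 13 CPM in sham, 118 ± 27.4 CPM in CLP and 131 ± 54.8 CPM in CLP+DCA, with the sham and CLP mice not overlapping (log2 fold change -0.51 ± 0.29, edgeR adjusted p = 0.254).

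The marker lists of monocytes, platelets and macrophages were read beside F13a1, and the neutrophil list is given with Plaur below. The 4 monocyte markers summed to 4.38 to 5.91 CPM in sham, 10.3 to 13.5 CPM in CLP and 5.88 to 18.4 CPM in CLP+DCA, with 2 of the 4 higher in every CLP than in every sham mouse. The 10 platelet and megakaryocyte markers summed to 4.84 to 7.96, 10.9 to 22.7 and 6.23 to 29.9 CPM, with 1 of the 10 higher and 1 lower without overlap. The higher one, Itgb3, gave much of that sum, with means of 2.21 ± 0.946 CPM in sham and 10.1 ± 5.38 CPM in CLP. The 7 Kupffer cell and macrophage markers summed to 144 to 247, 227 to 304 and 193 to 378 CPM, with 1 of the 7 higher without overlap. No marker of these lists was at 0 in all mice. Within CLP, F13a1 was highest in replicate 3, while the monocyte and platelet sums were highest in replicate 2 and the macrophage sum in replicate 1. In bulk samples, fewer cells of a type and less RNA per cell cannot be told apart, and the part of these cells in the F13a1 value was not tested.

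**Figure D3:**
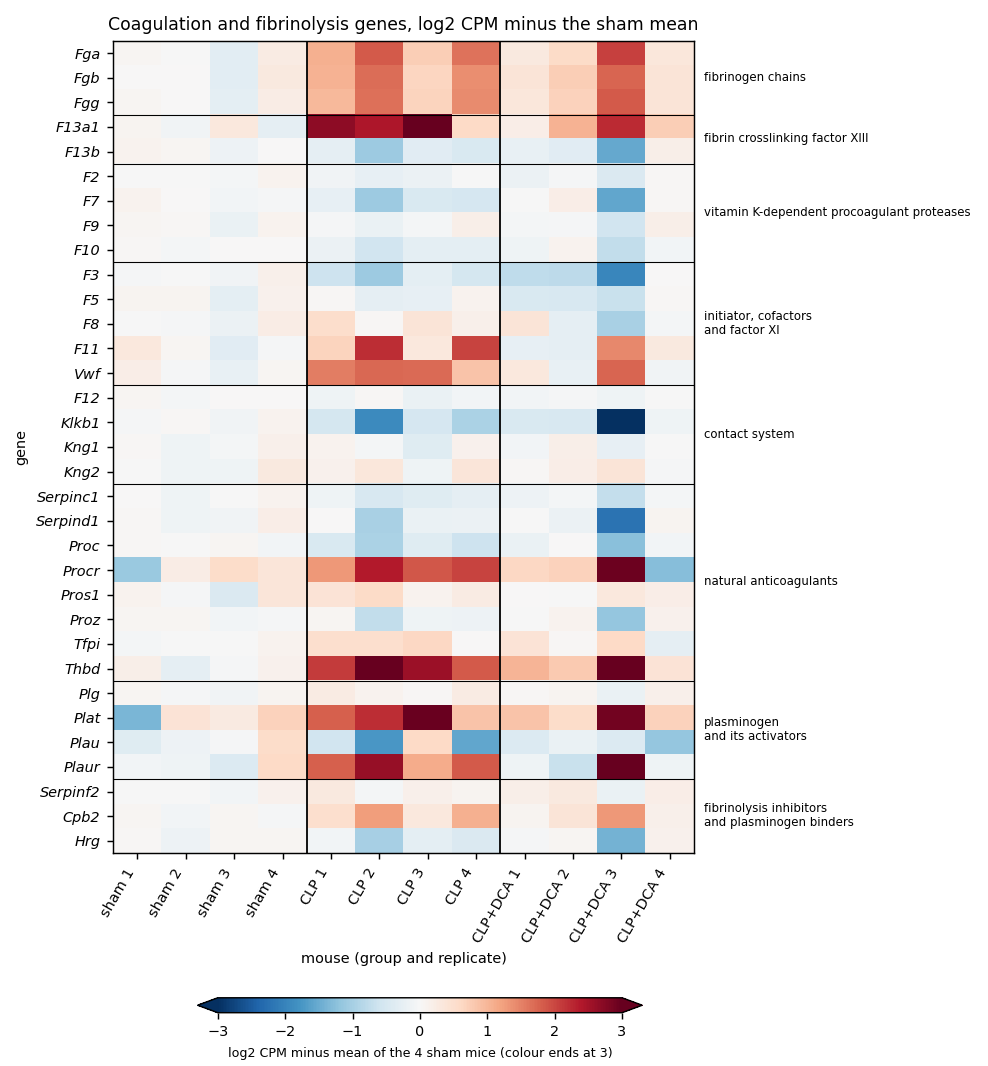
Level of each of the 33 genes in each mouse as log2 CPM minus the mean of the 4 sham mice, with genes grouped by role and mice by group. Red is above and blue below the sham mean, with the colour ending at 3. CLP+DCA replicate 3 is darker than the other CLP+DCA mice in most rows and is farthest from the sham mean of all 12 mice in 23.

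The vitamin K-dependent procoagulant proteases, which carry the gamma-carboxylated domain that binds them to membranes, all had lower means in CLP than in sham, and none passed the test on all 12 mice. F7, encoding the factor VII that tissue factor activates, was at 162, 150.5, 141 and 148 CPM in sham, 127, 70.3, 109.8 and 106 CPM in CLP and 149, 173, 51.2 and 154 CPM in CLP+DCA. Sham and CLP did not overlap, and CLP+DCA replicate 3 was the lowest mouse of all (log2 fold change in CLP -0.54 ± 0.30, edgeR adjusted p = 0.252). F10, encoding factor X of the prothrombinase, was at 464 ± 12.8 CPM in sham, 369 ± 42.1 CPM in CLP and 411 ± 94.1 CPM in CLP+DCA, again without overlap of sham and CLP (log2 fold change -0.33 ± 0.16, edgeR adjusted p = 0.207). F2, encoding prothrombin, was at 1965 ± 98.5, 1796 ± 130.3 and 1781 ± 239.8 CPM in the 3 groups, and its groups overlapped. F9, encoding factor IX, was at 225 ± 19.7, 221 ± 25.1 and 209.8 ± 42.7 CPM, and the sign of its small CLP difference (-0.03 ± 0.15) depended on single mice. F7 and F10 are neighbours on chromosome 8 (mm10), F7 at chr8:13026034-13035805 and F10 at chr8:13037308-13056676, 1.5 kb apart, with Proz 4.2 kb further on at chr8:13060908-13076024. Proz, a cofactor for the inhibition of factor Xa, was at 490.0 ± 24.7, 422 ± 90.6 and 442 ± 149.9 CPM. CLP replicate 2 was the lowest CLP mouse for all 3 neighbours, and CLP+DCA replicate 3 the lowest of all 12.

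The initiator, cofactors and factor XI moved in different directions. F11, the protease that thrombin and factor XIIa activate to feed factor IX, was at 80.6, 67.1, 50.8 and 62.3 CPM in sham, 102, 300.4, 80.4 and 264 CPM in CLP and 54.3, 53.7, 174 and 79.1 CPM in CLP+DCA. CLP replicates 2 and 4 were well above the rest, and replicate 3 was within the sham range, so the groups overlapped. The log2 fold change in CLP was 1.52 ± 0.48 (edgeR adjusted p = 0.0802, fold of the means 2.86). Vwf, the platelet-tethering multimer that carries factor VIII, was at 3.57, 3.02, 2.63 and 3.23 CPM in sham, 9.12, 10.3, 10.1 and 5.61 CPM in CLP and 3.86, 2.62, 10.5 and 2.86 CPM in CLP+DCA. All CLP mice were above all sham mice, and 3 of the 4 CLP+DCA mice were at 2.62 to 3.86 CPM (log2 fold change in CLP 1.5 ± 0.40, edgeR adjusted p = 0.0622). F3, encoding tissue factor, was lower without overlap, at 3.35, 3.39, 3.17 and 3.8 CPM in sham, 2.19, 1.58, 2.78 and 2.33 CPM in CLP and 1.98, 1.95, 0.84 and 3.47 CPM in CLP+DCA (log2 fold change -0.62 ± 0.33, edgeR adjusted p = 0.227). The cofactors showed small differences with overlapping groups, F5 (factor V) at 542 ± 70.7, 507 ± 67 and 419 ± 91.7 CPM and F8 (factor VIII) at 7.4 ± 0.87, 9.04 ± 1.42 and 6.63 ± 2.43 CPM. The antisense gene Gm16548 overlaps F5, and whether strand was used in counting is not given in the sources used here, but it held at most 208 reads in a mouse against 9318 or more for F5.

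**Figure D4:**
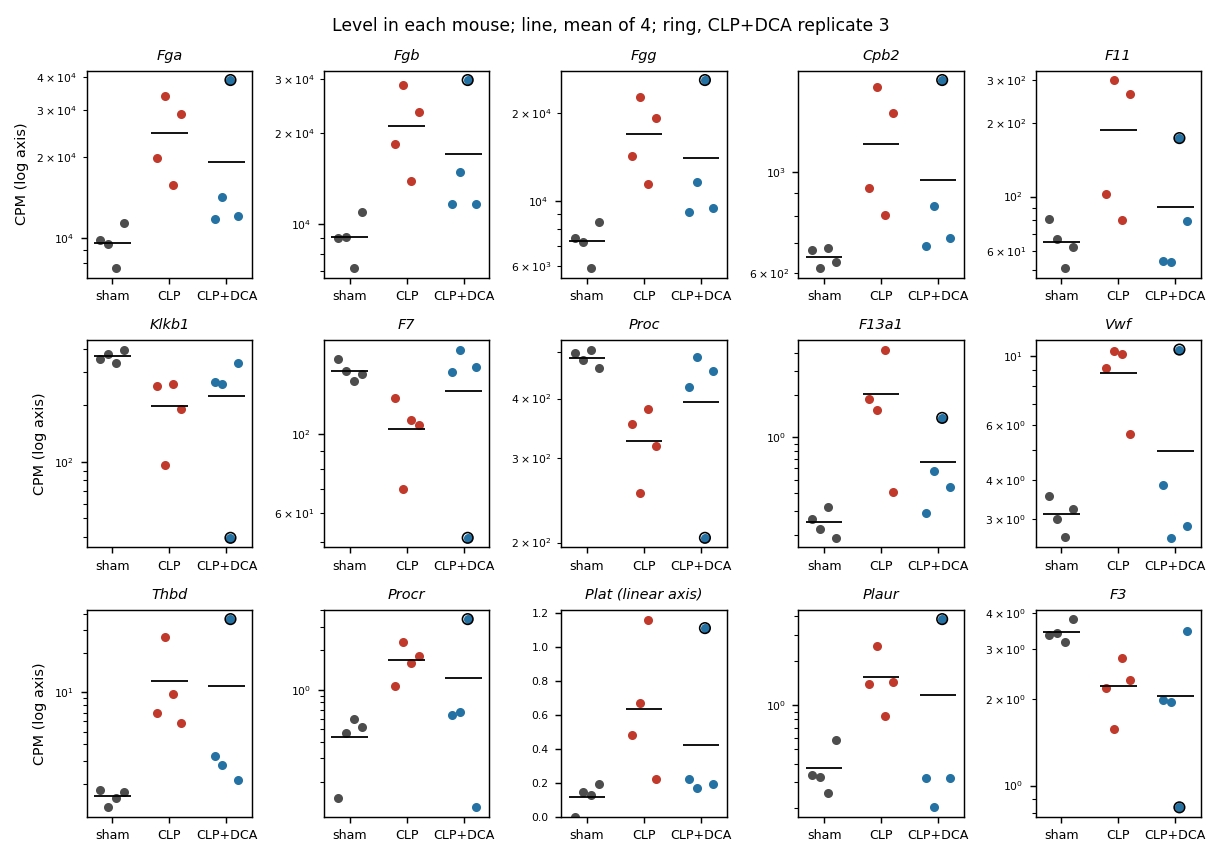
Level of 15 genes in each mouse in CPM, on a log axis except for Plat, whose axis is linear because a sham mouse had no reads. Points are mice, the line is the mean of 4 and the ring marks CLP+DCA replicate 3, which lies above the other 3 CLP+DCA mice in Fga, Fgb, Fgg, Cpb2, F11, F13a1, Vwf, Thbd, Procr, Plat and Plaur and below them in Klkb1, F7, Proc and F3.

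The contact system links kallikrein, kininogen and factor XII to factor XI and to kinin release. Klkb1, encoding plasma prekallikrein, was at 355, 376, 338 and 397 CPM in sham, 253, 96.6, 259 and 190.5 CPM in CLP and 266, 260.5, 39.4 and 337 CPM in CLP+DCA. Every CLP and every CLP+DCA mouse was below every sham mouse, with CLP+DCA replicate 3 lowest (log2 fold change in CLP -0.88 ± 0.50, edgeR adjusted p = 0.255). Klkb1 (chromosome 8, chr8:45266688-45294835, mm10) lies 4.7 kb from F11 (chr8:45241168-45262031) on the same strand, and the genes differed in opposite directions. Within CLP their orders were exact reverses, replicate 2 having the most F11 and the least Klkb1 and replicate 3 the least F11 and the most Klkb1. Of the 100-base windows of annotated Klkb1 transcripts, 42.1% were also in transcripts of the gene model Gm45753, which is not a row of the count table by that name. F12, encoding factor XII, was at 507 ± 16.5, 477 ± 34 and 486 ± 17.3 CPM with overlapping groups. Kng1 was at 3355 ± 299, 3274 ± 491 and 3264 ± 383 CPM and Kng2, its paralog 29.2 kb away, at 438 ± 64.3, 497 ± 78.1 and 484 ± 66.1 CPM. The paralogs shared 4.93% of the 100-base windows of Kng1 and 5.85% of those of Kng2, so how reads were divided between them is uncertain, and the signs of their CLP differences changed with scaling or single mice.

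The natural anticoagulants fell into 2 classes by level. Of the 5 secreted proteins that hepatocytes make in quantity, Proc, Serpinc1, Serpind1 and Proz had lower means in CLP and Pros1 a higher one. Proc, encoding the zymogen of activated protein C, which inactivates factors V and VIII, was at 497, 481, 506 and 462 CPM in sham, 353, 253, 380.3 and 318 CPM in CLP and 424, 488, 205 and 457 CPM in CLP+DCA. All CLP mice were below all sham mice, and CLP+DCA replicate 3 was the lowest mouse (log2 fold change in CLP -0.58 ± 0.23, edgeR adjusted p = 0.133). Serpinc1, encoding antithrombin, was at 1880.2 ± 127 CPM in sham, 1521 ± 152 CPM in CLP and 1612 ± 318 CPM in CLP+DCA, with sham and CLP not overlapping (log2 fold change -0.31 ± 0.16, edgeR adjusted p = 0.222). Serpind1, encoding heparin cofactor II, was at 565 ± 57.6, 459.6 ± 121 and 446 ± 220.0 CPM, with overlap, and Pi4ka overlaps it on the other strand with up to 2034 reads in a mouse. Pros1, encoding the protein S that assists activated protein C, was at 96.5 ± 21.7, 120.3 ± 16.7 and 104 ± 11.4 CPM, also with overlap.

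The membrane-bound anticoagulants of the endothelium were scarce in sham liver, and none passed the test in CLP on all 12 mice. Thbd, encoding thrombomodulin, which turns thrombin toward protein C, was at 1.79, 1.31, 1.55 and 1.72 CPM in sham, 7.0, 26.7, 9.7 and 5.84 CPM in CLP and 3.26, 2.79, 36.6 and 2.13 CPM in CLP+DCA. All CLP and all CLP+DCA mice were above all sham mice, although 3 of the CLP+DCA mice stayed below every CLP mouse (log2 fold change in CLP 2.94 ± 0.93, edgeR adjusted p = 0.081). Procr, the endothelial receptor that presents protein C to thrombomodulin, was at 0.149, 0.47, 0.602 and 0.52 CPM in sham, 1.06, 2.3, 1.6 and 1.8 CPM in CLP and 0.638, 0.672, 3.44 and 0.127 CPM in CLP+DCA. The CLP mice were again all above the sham mice, on 4 to 19 reads in sham (log2 fold change 1.91 ± 0.75, edgeR adjusted p = 0.128). Tfpi, the inhibitor of tissue factor and factor VIIa, was at 3.0 ± 0.144, 4.04 ± 0.711 and 3.52 ± 0.926 CPM with overlapping groups (log2 fold change in CLP 0.43 ± 0.20, edgeR adjusted p = 0.171). The 8 endothelial markers, none of them at 0 in all mice, summed to 128 to 170.0 CPM in sham, 158 to 203 CPM in CLP and 127 to 182 CPM in CLP+DCA, with 2 of the 8 higher in CLP without overlap. The 4 cholangiocyte markers, most of whose sum was Sox9, summed to 6.17 to 10.2 CPM in sham, 16.5 to 54 CPM in CLP, 8.33 to 8.43 CPM in 3 CLP+DCA mice and 73.7 CPM in CLP+DCA replicate 3, with 3 of the 4 higher in CLP without overlap. The part of either list in the values of Vwf, Thbd, Procr and Plat was not tested.

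Plasminogen transcripts were abundant and those of its activators were rare. Plg was at 3058 ± 178, 3427 ± 251 and 3098 ± 311 CPM with overlapping groups. Plat, encoding tissue plasminogen activator, was at 0, 0.149, 0.127 and 0.191 CPM in sham, 0.484, 0.67, 1.16 and 0.225 CPM in CLP and 0.223, 0.168, 1.11 and 0.191 CPM in CLP+DCA. Those sham values rest on 0 to 7 reads a mouse and the CLP values on 5 to 48, with CLP replicate 3 highest and replicate 4 nearest to sham (log2 fold change in CLP 2.37 ± 0.80, edgeR adjusted p = 0.0909). Plaur, the urokinase receptor that neutrophils and macrophages carry, was at 0.335, 0.322, 0.253 and 0.574 CPM in sham, 1.38, 2.49, 0.846 and 1.44 CPM in CLP and 0.319, 0.202, 3.82 and 0.318 CPM in CLP+DCA. The CLP mice were all above the sham mice, 3 CLP+DCA mice were within the sham range or below it, and CLP+DCA replicate 3 was highest of all, on 8 to 21 reads a mouse in sham and 32 to 60 in CLP (log2 fold change in CLP 2.01 ± 0.86, edgeR adjusted p = 0.151). The neutrophil marker sum followed the same order of groups. Of its 7 genes, 5 were higher in CLP without overlap, and none was at 0 in all mice. The remaining genes, Ly6g and Mpo, had lower means in CLP, with overlapping groups. Ly6g was at a mean of 0.823 CPM in sham and 0.459 CPM in CLP, and Mpo at 0.0557 and 0.0242 CPM. Most of the sum in CLP came from S100a8 and S100a9. The part of this list in the Plaur values was not tested. Plau, encoding urokinase, was at 0.806 ± 0.256, 0.533 ± 0.472 and 0.533 ± 0.151 CPM with overlap.

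Of the inhibitors and binders, Cpb2 stood out. It encodes the carboxypeptidase TAFI, which trims plasminogen-binding lysines from fibrin, and was at 674, 614, 681 and 633 CPM in sham, 925, 1544, 805 and 1354 CPM in CLP and 689, 843, 1601 and 717 CPM in CLP+DCA. Every CLP and every CLP+DCA mouse was above every sham mouse, with the CLP order of the fibrinogen genes (replicate 2, then 4, 1 and 3). The log2 fold change in CLP was 0.83 ± 0.28 (edgeR adjusted p = 0.0931, fold of the means 1.78). Serpinf2, encoding the plasmin inhibitor alpha2-antiplasmin, was at 1107 ± 68.1, 1203 ± 118 and 1208 ± 176 CPM. Hrg, encoding histidine-rich glycoprotein, which binds plasminogen and heparin, was at 1232 ± 87.3, 927 ± 233 and 1075 ± 413 CPM, with 463 CPM in CLP+DCA replicate 3. Both overlapped between sham and CLP.

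The fold directions can be read by role. All 3 fibrinogen chains, 3 of 4 plasminogen genes and 4 of 8 anticoagulants had positive CLP fold changes, and all 4 vitamin K-dependent procoagulants and 3 of 4 contact genes had negative ones. Over the set 17 were positive and 16 negative, against 51.9% positive among all genes tested. The 10 genes that were higher without overlap held both the abundant secreted products Fga, Fgb, Fgg and Cpb2 and the scarce cell-bound or non-hepatocyte products F13a1, Vwf, Thbd, Procr, Plat and Plaur. The 7 that were lower were, apart from F3, secreted products of hepatocytes. The sum of the 6 hepatocyte markers was 54114 to 76305 CPM in sham, 26634 to 37580.5 CPM in CLP and 24752 to 49419.6 CPM in CLP+DCA, with none of the 6 at 0. Albumin made up most of this sum and, with Ttr, was lower in CLP without overlap. The other 4 overlapped, and Hnf4a, a transcription factor of hepatocytes, was at 714 ± 39 CPM in sham and 739.6 ± 53.2 CPM in CLP. The part of the hepatocyte share in the lower group was not tested.

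A wider list of 30 related genes of the pathway was read for comparison, of which 23 passed the filter. None of the 23 was called in CLP versus sham on all 12 mice by edgeR's quasi-likelihood test. By that test 8 were higher and 2 lower at an unadjusted p under 0.05 (against 15.5% and 13.1% of all genes). DESeq2 on the 8 mice called 12 of the 30 listed (against 23.2% of all genes). Among these was Serpina5, which had failed the edgeR filter and held 1 to 2 reads in each sham mouse. Without CLP+DCA replicate 3, edgeR called 8 higher and 2 lower (against 12.2% and 11.5%). The lowest p was that of C4bp, at 763, 821, 641 and 768 CPM in sham and 1143, 1585, 963 and 1542 CPM in CLP (log2 fold change 0.81 ± 0.20, edgeR adjusted p = 0.055). Mcfd2, a cargo receptor subunit for factors V and VIII, had a log2 fold change of 0.58 ± 0.17 (edgeR adjusted p = 0.0695). Serpina10, the protein Z-dependent inhibitor that works with Proz, had one of 0.46 ± 0.13 (edgeR adjusted p = 0.0731) and Prcp, a carboxypeptidase that can activate prekallikrein, one of 0.45 ± 0.13 (edgeR adjusted p = 0.0755). In all 4 the sham and CLP mice did not overlap.

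CLP+DCA was compared with CLP to ask whether the set differed 6 hr after DCA. On all 12 mice edgeR called none of the 33 genes (0.00758% of all genes), DESeq2 called none on 8 mice (0.615%) or on 12 mice (0.875%), and voom with sample quality weights called 9, all lower (against 10.2% of all genes). At an unadjusted p under 0.05, F11 and F13a1 were lower (against 4.94% of all genes) and no gene was higher (against 5.06%). No gene had groups without overlap in either direction (against 2.32% higher and 2.05% lower). The log2 fold changes were -1.60 ± 0.60 for F13a1 (edgeR adjusted p = 0.422), -1.05 ± 0.47 for F11 (edgeR adjusted p = 0.497) and -0.83 ± 0.39 for Vwf (edgeR adjusted p = 0.506). The median over the set was -0.12, against 0.01 over all genes, with 10 genes positive and 23 negative.

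The values of this comparison depended on 1 mouse. CLP+DCA replicate 3 held 39019 CPM of Fga against 11702 to 14172 CPM in the other 3 CLP+DCA mice, 36.6 against 2.13 to 3.26 CPM of Thbd, 3.82 against 0.202 to 0.319 CPM of Plaur and 39.4 against 260.5 to 337 CPM of Klkb1. This mouse was singled out after its values were seen, and it lay beyond the CLP mean for 27 of the 33 genes. Leaving it out therefore moves CLP+DCA toward sham in those genes by construction. The calls without it rest partly on that choice. Without this mouse, edgeR called 4 of the 33 genes (12.1%, against 4.64% of all genes). Thbd was lower than in CLP by 2.16 ± 0.49 on the log2 scale, Plaur by 2.41 ± 0.42 and Vwf by 1.5 ± 0.22, and F7 was higher by 0.62 ± 0.16. The fibrinogen chains then had log2 fold changes of -0.97 ± 0.25 (Fga), -0.73 ± 0.24 (Fgb) and -0.75 ± 0.23 (Fgg), none of them called, against -0.36 ± 0.39, -0.31 ± 0.32 and -0.27 ± 0.34 on all 12 mice. Cpb2 changed from -0.27 ± 0.28 to -0.63 ± 0.20 and Proc from 0.27 ± 0.23 to 0.48 ± 0.13, neither called. Without both this mouse and CLP replicate 3, 10 of 32 genes were called lower in CLP+DCA (against 8.64% of all genes) and 2 higher (against 8.27%). The value of Thbd had a positive sign when certain other mice were left out, so its sign depended on single mice.

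CLP+DCA shared its mice with the comparison above and was also set against sham, whose mice are shared with the first comparison. On all 12 mice edgeR called none of the 33 genes (0.0379% of all genes), DESeq2 called none on 8 mice (1.19%) or on 12 (1.79%), and voom with sample quality weights called F3 (against 3.76%). At an unadjusted p under 0.05, Fga, Fgb, Fgg, Plat and Thbd were higher (15.2%, against 8.14% of all genes) and F3 and F5 lower (6.06%, against 4.85%). The CLP+DCA mice did not overlap the sham mice for Cpb2, Fga, Fgb, Fgg and Thbd, all higher (15.2%, against 4.78%), and for Klkb1, which was lower (3.03%, against 4.97%). The log2 fold changes were 1.01 ± 0.40 for Fga (edgeR adjusted p = 0.327), 0.91 ± 0.33 for Fgb (edgeR adjusted p = 0.311), 0.95 ± 0.34 for Fgg (edgeR adjusted p = 0.312) and 2.82 ± 0.92 for Thbd (edgeR adjusted p = 0.29). Those of F3 and F5 were -0.74 ± 0.33 and -0.37 ± 0.17 (edgeR adjusted p = 0.377 and 0.382).

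The 3 CLP+DCA mice other than replicate 3 lay within the sham range for more of the 33 genes than the CLP mice did. That set of 3 was left by the choice of mouse described above. Without replicate 3, edgeR called none of the 33 genes (0.0828% of all genes), with log2 fold changes of 0.40 ± 0.24 for Fga, 0.49 ± 0.23 for Fgb, 0.47 ± 0.22 for Fgg, 0.78 ± 0.49 for Thbd, 0.20 ± 0.20 for Cpb2 and 0.00 ± 0.22 for Vwf. Fga was nonetheless at 11702 to 14172 CPM in these 3 mice and at 7672 to 11309 CPM in sham, Cpb2 at 689 to 843 against 614 to 681 CPM and Thbd at 2.13 to 3.26 against 1.31 to 1.79 CPM, so that the lowest of them was still above the highest sham mouse. Klkb1 was at 260.5 to 337 against 338 to 397 CPM, below it. Of the 33 genes, 12 in replicate 1, 13 in replicate 2 and 15 in replicate 4 were within the sham range, against 1 in replicate 3 and 5 to 7 in the CLP mice. Most of the 33 were thus outside that range in each of these mice, and the same count over all genes was not taken.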

How the data were processed

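Whole-liver RNA of 12 mice was sequenced by the authors from TruSeq v2 libraries (100-base paired reads), aligned to mm10 with STAR 2.5 and counted per gene with featureCounts of Subread 1.5.0-p1, per the labels and the study's methods. The deposited values were raw read counts per gene. The annotation and the strand setting are not given in the sources used here.

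Genes were filtered (minimum count 10), scaled by TMM and fitted on all 12 mice in edgeR 4.0.16 (R 4.3.3) with robust quasi-likelihood tests, and p was adjusted by Benjamini-Hochberg over 13190 genes (FDR 0.05). DESeq2 1.42.0, limma 3.58.1 (voom), other scalings and filters, a replicate block and leaving out mice were alternatives. The test was run on simulated counts with the same spread for every gene and no outlying mouse. That setting cannot show how a mouse like CLP+DCA replicate 3 acts on the calls. The 33 genes, the related genes and the markers were chosen with earlier results of these data known. Genes past the FDR, the 12 with the lowest p in CLP versus sham and the 3 in CLP+DCA versus CLP have values per mouse, as do a few more chosen after their values were seen (F7, F3 and Klkb1). Exon lengths are unions from GENCODE M21. Replicates are separate mice, and a ± on a level or share is the SD between the mice of a group. A ± on a log2 fold change is an SE derived from the fold change and edgeR's F statistic. It rests on a spread estimated over all groups in the fit.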

Additional observations from a re-analysis of the deposited data

Results flagged for a closer look

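In 13 of the 99 groups of 4 mice that were read, 1 gene in 1 group each, a single mouse lay far from the other 3. The measure was Dixon's ratio on log2 CPM at its 95% critical value, and chance gives about 1 in 20 groups. The 99 readings come from the same 12 mice and are not independent, so the counts cannot be compared as a test. Of the 13, 11 were in the CLP+DCA group, all in replicate 3, 2 were in sham and none was in CLP.

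CLP+DCA replicate 3 was the highest mouse of its group for Fga (39019 CPM, against 11702 to 14172 CPM in the other 3), Thbd (36.6 CPM, against 2.13 to 3.26), Plat (1.11 CPM, against 0.168 to 0.223) and Plaur (3.82 CPM, against 0.202 to 0.319). It was the lowest for F7 (51.2 CPM, against 149 to 173), Klkb1 (39.4 CPM, against 260.5 to 337), Serpinc1 (1142 CPM, against 1694 to 1814) and Serpind1 (122 CPM, against 500.1 to 599.7). It was also the lowest for Proc (205 CPM, against 424 to 488), Proz (220 CPM, against 486 to 536) and Hrg (463 CPM, against 1199 to 1352). The genes at the high end are those whose CLP mice were above sham, and the genes at the low end had lower CLP means.

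In sham, F5 was low in replicate 3 (437 CPM, against 566 to 591 CPM in the others) and Hrg was low in replicate 2 (1103 CPM, against 1263 to 1289 CPM).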

How the results depend on the processing

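In CLP versus sham the count of called genes, 1 of 33 by edgeR on all 12 mice, was 8 by DESeq2 on 12 mice (13.4% of all genes were called), 18 by DESeq2 on 8 mice (23.2%), 13 by edgeR on 8 mice (18.3%) and 17 by voom with sample quality weights (26.2%). It was 17 without CLP replicate 3 and CLP+DCA replicate 3 together (31.1%, chosen after seeing the data). It was 9 at an FDR of 0.1 and 0 at 0.01, and the shares of all genes called at these thresholds were not computed. It was 0 with library size alone, without the filter, with a filter of 1 CPM in every mouse of a group and with the replicate block. On leaving out 1 mouse it ranged from 0 to 16, while the share of all genes called ranged from 0.0749% to 23.8%. The sign held in all of these settings for 28 of the 33 genes. In CLP+DCA versus CLP, 0 became 9 with voom (10.2%) and 12 without both replicates 3 (16.9%). It ranged from 0 to 4 on leaving out 1 mouse (0 to 4.64% of all genes). In CLP+DCA versus sham voom called 1 (3.76%). The replicate numbers showed no clear pairing of the mice. Of 12 same-numbered pairs of mice, 1 had a correlation of deviations above 0.1 (range -0.46 to 0.55). Pairs with different numbers ran from -0.61 to 0.70, so this check cannot exclude a pairing. The block called 46 genes in all in CLP versus sham.

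Library size alone moved the median of all genes in CLP versus sham to -0.15 and that of the set to -0.0437, and gave Kng2 -0.00161, Plg -0.00921 and Serpinf2 -0.0437. It moved the set's median in CLP+DCA versus CLP to -0.0240. The filter of 1 CPM, which keeps 29 of the 33 genes, gave a median of -0.0161 in CLP versus sham. Kng1 in CLP versus sham was 0.0276 with voom, 0.0615 without both replicates 3 and -0.0967 to 0.0592 on leaving out 1 mouse, and F9 was -0.101 to 0.0317. Thbd in CLP+DCA versus CLP ranged from -2.16 to 0.58 on leaving out 1 mouse. With acute phase genes left out of numerator and total, the set took 2.20% of reads in sham livers, 2.33% in CLP livers and 2.25% in CLP+DCA livers. Where the effect of a setting is not given by its own construction, the cause was not tested. Genes with under 20 reads in most mice of a group (F13a1, Plat and Plaur in sham and CLP+DCA, and Procr in sham) are limited by depth, and 4 mice a group limit the rest.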
